A study of Mus musculus with 2 samples.

Results

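Actins and contractile genes of the myofibroblast type were examined in mouse embryonic fibroblasts (MEFs) that carry or lack normal maintenance DNA methylation. The group holds 10 genes, chosen by name with no threshold on their values, of the 29126 entries in the deposited expression table. It comprises the cytoplasmic actins Actb and Actg1, the smooth muscle actins Acta2 and Actg2, the striated muscle actins Acta1 and Actc1, and the smooth muscle contractile genes Tagln, Cnn1, Myl9 and Tpm2. An entry was taken as a member when one of these symbols stood in its gene column, which gave 11 entries, since Cnn1 has 2.

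Polyadenylated RNA was sequenced with strand information in 2 libraries, 1 from Dnmt1+/+ and 1 from Dnmt1-/- MEFs. Dnmt1 encodes the DNA methyltransferase that copies methylation onto newly made DNA, and the cells called Dnmt1-/- are homozygous for a hypomorphic (reduced function) allele of it. Both lines also lack the gene for p53, trp53, so the Dnmt1+/+ line is a trp53-null control and not a normal fibroblast. Strain is recorded as unknown and neither age nor sex is given by the labels, and with a single line per genotype the effect of the genotype cannot be told apart from other differences between the lines. Values are RPKM, in which reads are divided by transcript length and by library size, so levels can be set side by side within a library. A change is given as the Dnmt1-/- minus the Dnmt1+/+ value of log2(RPKM + 0.1), on which changes at low RPKM come out too small. No difference has a replicate check, no test was possible, and a gene is called higher or lower past 2-fold. Counting error is not given either, as the files hold RPKM without the reads behind them.

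Actins are the building blocks of microfilaments. The cytoplasmic isoforms, beta-actin from Actb and gamma-actin from Actg1, form the cortex, lamellipodia and stress fibres of nearly all cells, whereas the muscle isoforms serve contraction. Fibroblasts that build contractile stress fibres, in healing wounds and in culture on stiff plastic, take on smooth muscle proteins and are then called myofibroblasts, with alpha smooth muscle actin from Acta2 as their classic marker. Transcription of many of these genes depends on serum response factor (Srf), which binds a promoter element called the CArG box together with the actin-sensing cofactors Mrtf-A and Mrtf-B.

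The promoters of these genes are shown where they hold a CArG box, because this is the element through which Srf and its actin-sensing cofactors act. RefSeq windows of 300 bases on GRCm38.p6, a later build than that of the expression table, were at hand for 7 members. Actb, Actg2 and Tagln were not among them. A CArG box, searched on both strands, was found in the windows of 4 of the 7 members and in 1.63% of all 32851 windows. It stands in capitals below, read on the strand of the gene.
Actg1, chr11:120348551-120348610, minus strand: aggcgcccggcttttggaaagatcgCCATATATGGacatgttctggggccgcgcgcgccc
Acta1, chr8:123894814-123894873, minus strand: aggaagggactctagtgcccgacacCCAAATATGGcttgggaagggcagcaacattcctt
Actc1, chr2:114052888-114052947, minus strand: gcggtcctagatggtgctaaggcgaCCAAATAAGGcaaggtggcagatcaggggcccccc
Myl9, chr2:156775278-156775337, plus strand: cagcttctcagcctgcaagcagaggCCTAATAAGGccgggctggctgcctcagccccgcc
The first base of the box lies 90, 73, 47 and 161 bases before the RefSeq start in this order.

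Another element of muscle promoters, MCAT (CATTCC, or GGAATG on the other strand), bound by Tead factors, was found in the windows of Acta1 and Acta2 and in 14.7% of all windows. In the window of Acta2 it lies on the opposite strand, and the capitals mark it.
Acta2, chr19:34255489-34255544, minus strand: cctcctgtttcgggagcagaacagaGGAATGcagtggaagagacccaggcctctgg

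In both libraries Actb, Actg1 and Acta2 were each above 1000 RPKM, a level that 27 of the 11244 genes kept exceeded in Dnmt1+/+ and 24 in Dnmt1-/-. Genes were kept when Cuffdiff gave them the status OK, they had a symbol and their RPKM was 1 or more in at least one of the libraries, and all 11 member entries met this. Of the 11 entries, 2 were higher in Dnmt1-/- MEFs by more than 2-fold, against 8.47% of all genes kept. A single entry, that of Myl9, was more than 2-fold lower, against 10.9% of all genes kept. The other 8 stayed within 2-fold, so that 3 of 11 were past it in either direction, against 19.4% of all genes kept. The median log2 change of the 11 entries was 0.37, while that of all genes kept was -0.14, and 9 of the 11 lay above that median. The targeted gene, Dnmt1, was at 65.2 RPKM in the first library and 14.5 in the second.

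**Figure D1:**
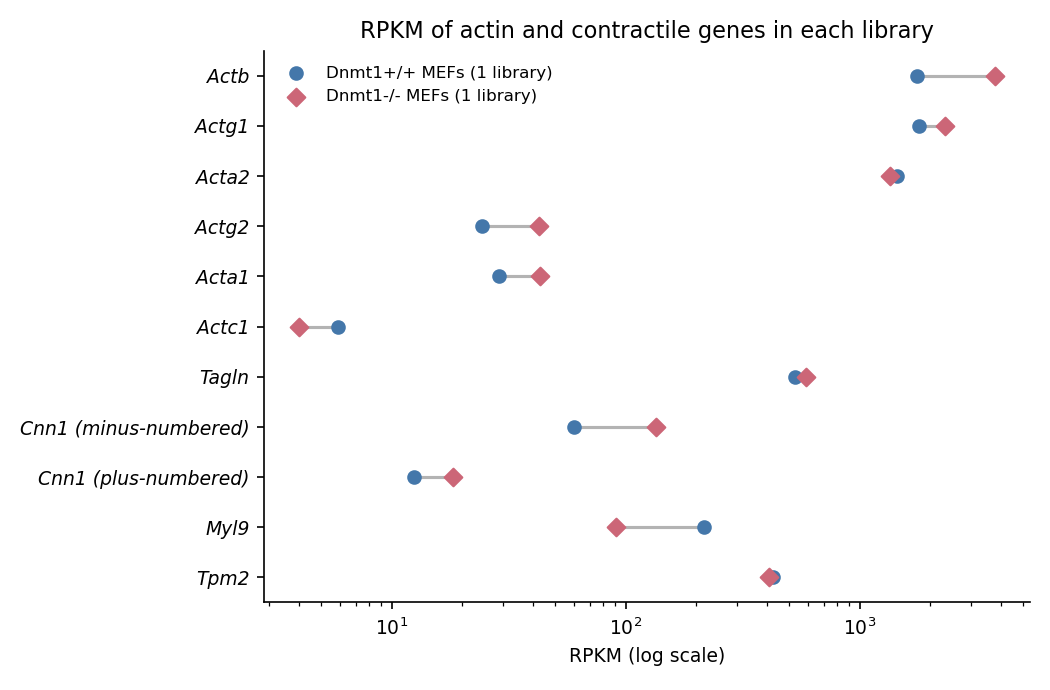
RPKM (log axis) of each member entry in the Dnmt1+/+ library (circles) and the Dnmt1-/- library (diamonds), 1 library each and so no error bars. Actb, Actg1 and Acta2 lie above 1000 RPKM in both libraries, and the longest distances between the symbols are those of Actb, the minus-numbered entry of Cnn1, and Myl9, the last of which runs to the left.

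Both cytoplasmic actins had a positive change, and that of Actb passed 2-fold. Actb, at chr5:143664794-143668433 of NCBI37 (mm9) on the minus strand, was at 1759 RPKM in Dnmt1+/+ and 3779 in Dnmt1-/-, which is 2.15-fold higher, a log2 change of 1.10. This placed it at rank 9 of the genes kept in the first library and at rank 1 in the second. Actg1, on the minus strand at chr11:120207004-120209856, went from 1789 to 2315 RPKM, a log2 change of 0.37 that stays within 2-fold. The RPKM of Actb was 0.983 times that of Actg1 in Dnmt1+/+ and 1.63 times in Dnmt1-/-, so the pair was near parity in one line and Actb was in excess in the other.

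How far a value of Actg1 can be trusted depends on how reads with several matching positions were assigned, which is not stated in the sources used here. To measure this, every stretch of 50 bases, the length of the reads, was taken from the coding transcripts of each member and searched for exact copies in the genome. For Actg1, 71.9% of these windows had a copy outside the gene, and for Actb 12.4% did. The copies were mostly not in the other actin genes, as 1.45% of the Actg1 windows and 2.06% of the Actb windows were shared with another member. Acta1 had copies elsewhere for 2.22% of its windows and Acta2 for 0.404%. Actg2, Actc1, Tagln, Cnn1, Myl9 and Tpm2 had none. Reads could therefore be shared with other loci for Actg1 above all, and the part of such sharing in its RPKM was not tested.

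**Figure D2:**
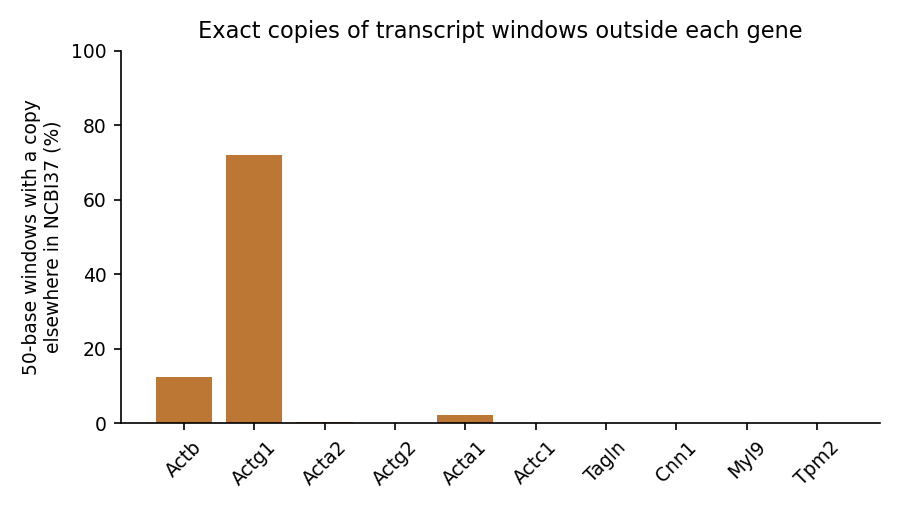
Share of the 50-base windows of each member's coding transcripts that have an exact copy, on either strand, outside the gene in the NCBI37 genome. The bar of Actg1 reaches 71.9% and that of Actb 12.4%, while the others lie between 0% and 2.22%.

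The smooth muscle members did not move as a group. Acta2, the myofibroblast marker, was at 1435 RPKM in Dnmt1+/+ and 1348 in Dnmt1-/-, a log2 change of -0.09 that turned to 0.05 relative to the median of all genes. The gene lies on the minus strand at chr19:34315580-34329826, and its rank among the genes kept was 16 in Dnmt1+/+ and 14 in Dnmt1-/-. Tpm2, which encodes beta-tropomyosin, a protein that lies along the actin filament, was at 426.3 and 410.8 RPKM and held rank 97 in both libraries. Its change of -0.05 became 0.09 with the median subtracted. Tagln, which encodes the actin-binding protein transgelin (SM22), was at 528.6 and 586.5 RPKM, a log2 change of 0.15. These 3 abundant smooth muscle genes thus differed between the libraries by 1.11-fold at most, and their order was the same in both. Relative to Acta2, the RPKM of Tpm2 was 0.297 in Dnmt1+/+ and 0.305 in Dnmt1-/-, and that of Tagln was 0.368 and 0.435.

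The deposited locus of Tagln is wider than the gene. The annotation places Tagln at chr9:45737711-45744141 on the minus strand, whereas the entry is listed from 45671773 to 45744141, a span of 72368 bp that 3 other entries share. These are Pcsk7, at 5.09 and 6.38 RPKM in Dnmt1+/+ and Dnmt1-/-, Rnf214, at 10.7 and 9.80, and an entry with no symbol at 1.01 and 1.13. All 3 lie far below Tagln in both libraries.

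Myl9 stood apart from the rest. It encodes a regulatory light chain of smooth muscle and non-muscle myosin II, the subunit whose phosphorylation switches on contraction, and lies at chr2:156601156-156607394 on the plus strand. The level was 216.6 RPKM with Dnmt1 intact and 91.1 in Dnmt1-/-, which is 2.38-fold lower, a log2 change of -1.25. Of all genes kept, 7.21% had a lower change. Its rank moved from 230 to 741, and its RPKM relative to Acta2 from 0.151 to 0.0676. After subtraction of the median change of all genes it was still more than 2-fold lower, at -1.11.

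Cnn1, which encodes the actin-binding protein calponin of smooth muscle, has 2 entries whose changes differ. The annotation places it on the plus strand of chromosome 9, at chr9:21903725-21914074. Both entries share one locus, and one went from 60.2 to 134.2 RPKM (a log2 change of 1.16) and the other from 12.5 to 18.3 (0.54). The table gives no strand, but the numbers in its entry names run, on each chromosome, first through genes of the plus strand and then through those of the minus strand. Over 10458 plus-strand and 9452 minus-strand genes, 99.3% and 98.9% fell in the run of their strand. By this order the more abundant Cnn1 entry is numbered among minus-strand genes (minus-numbered), and the less abundant one among plus-strand genes (plus-numbered), while the other 9 member entries stand in the run of their own strand. Which of the 2 entries measures the calponin mRNA was not tested, and the 2-fold call rests on the minus-numbered entry alone. Without it, 1 member entry, that of Actb, was more than 2-fold higher, and Actg2, at 0.80, had the most positive change among the smooth muscle members.

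Actg2, which encodes the gamma actin of enteric and other visceral smooth muscle, was a minor isoform in both lines. It lies at chr6:83462899-83486259 on the minus strand, and its RPKM values of 24.2 and 42.4 were 0.0169 and 0.0314 times that of Acta2. The log2 change of 0.80 does not pass 2-fold and exceeds that of 89.6% of the genes kept. In all, the 7 entries of smooth muscle members spread from -1.25 to 1.16, with a median of 0.15, while the median of both cytoplasmic actins was 0.74. The smooth muscle median was thus lower, by a difference of -0.59 on the log2 scale that no scaling of the libraries can alter. The cytoplasmic median rests on 2 genes, Actb at 1.10 and Actg1 at 0.37, which both lie within the smooth muscle spread. For Actg1, 71.9% of the windows had copies elsewhere, so read assignment could still alter the difference, which was not tested. The difference was -0.69 without the minus-numbered entry of Cnn1.

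**Figure D3:**
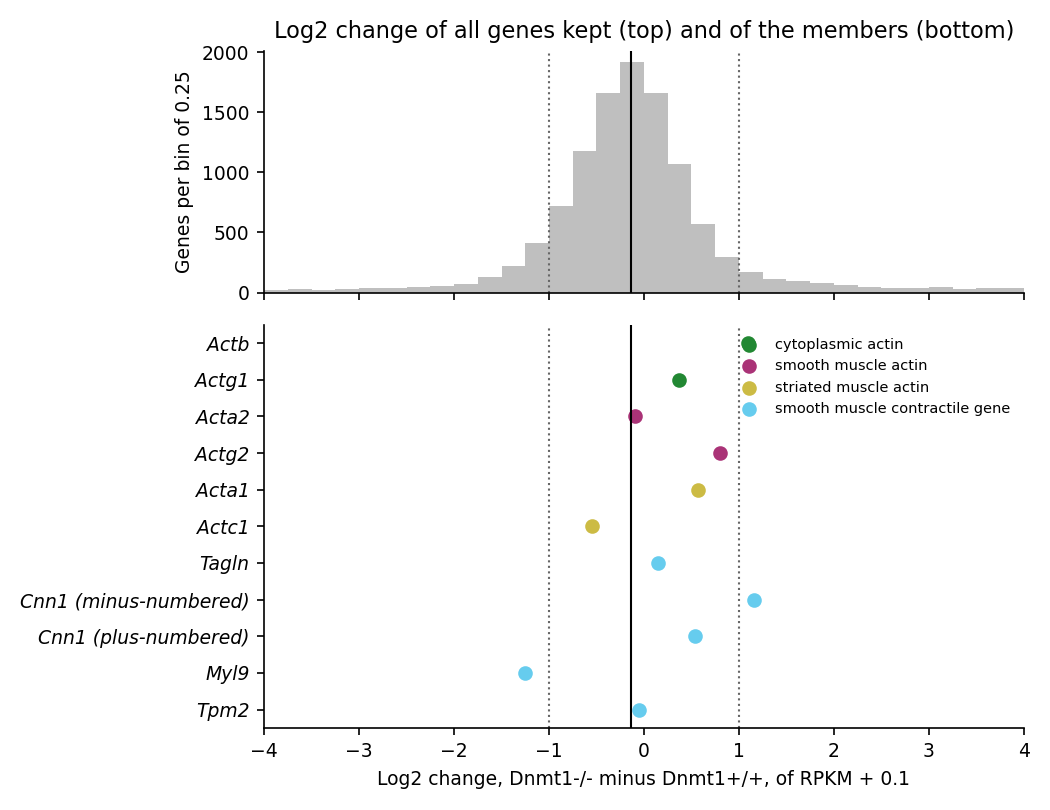
Log2 change from Dnmt1+/+ to Dnmt1-/- of the 11244 genes kept, as a histogram (top, with 272 genes counted among them lying beyond -4 or 4 and off the axis), and of each member entry by its role (bottom). The solid line is the median of all genes, -0.14, and the dotted lines mark 2-fold, which Actb and the minus-numbered entry of Cnn1 pass to the right and Myl9 to the left.

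The striated muscle actins were detected at low levels and differed in direction. Acta1, the actin of adult skeletal muscle (chr8:126415669-126418651, minus strand), was at 28.8 RPKM in Dnmt1+/+ and 42.8 in Dnmt1-/-, a log2 change of 0.57. Actc1, the cardiac actin (chr2:113873018-113879284, minus strand), was at 5.90 and 4.01 RPKM, a change of -0.55. Both stayed within 2-fold. The ratio of Acta1 to Actc1 was 4.89 in Dnmt1+/+ and 10.7 in Dnmt1-/-.

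The 4 genes with a CArG box in the promoter window did not share a direction, as Actg1 and Acta1 had log2 changes of 0.37 and 0.57 and Actc1 and Myl9 of -0.55 and -1.25. The windows of Acta2, Cnn1 and Tpm2 held no match to these letters, which says nothing of elements further away or of imperfect ones. The windows also differed in CpG dinucleotides, the substrate of Dnmt1. Actg1 held 50, more than 99.1% of all windows, Myl9 and Tpm2 held 20 each, Acta1 12, Actc1 7, and Acta2 and Cnn1 6 each, where the median of all windows was 7. Neither the CpG-rich nor the CpG-poor members moved in one direction. DNA methylation at these windows was not analysed here.

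Because all isoforms of a family are measured in the same library, their shares of the family's summed RPKM do not depend on how the libraries were scaled. The actin shares do depend on how reads with several matching positions were assigned, which was not tested. Copies outside the gene were found for 71.9% of the Actg1 windows and 12.4% of the Actb windows. The summed RPKM of the 6 actin genes was 5041 in Dnmt1+/+ and 7532 in Dnmt1-/-. Actb made up 34.9% of it in Dnmt1+/+ and 50.2% in Dnmt1-/-. Acta2 went the other way, from 28.5% to 17.9%, and Actg1 from 35.5% to 30.7%. Actg2, Acta1 and Actc1 each stayed under 0.6% in both libraries. The lower share of Acta2 thus went with an unequal change of the isoforms, in which its own RPKM hardly differed and that of Actb was 2.15-fold higher.

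In the tropomyosins, the share of Tpm2 was 18.0% in Dnmt1+/+ and 12.6% in Dnmt1-/-, and that of Tpm1, the alpha-tropomyosin gene, 52.2% and 58.7%. Among the transgelins, Tagln held 70.0% and 64.5%, with the rest nearly all in Tagln2, the broadly expressed paralog. Of the calponins, Cnn1, with both entries summed, made up 10.4% and 14%, and Cnn2, found in non-muscle cells as well, 60.0% and 70.6%. On the plus-numbered entry alone the share of Cnn1 was 1.95% and 1.91%, so its higher share in Dnmt1-/- rests on the minus-numbered entry. For the myosin regulatory light chains the comparison was between Myl9 and Myl12b, its close relative in non-muscle cells, which shares an entry with 2900073G15Rik. Myl9 had 35.6% of the summed RPKM of its own and this shared entry in Dnmt1+/+ and 15.8% in Dnmt1-/-. The shared entry was at 392.2 and 484.8 RPKM, and how much of it is Myl12b cannot be told.

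**Figure D4:**
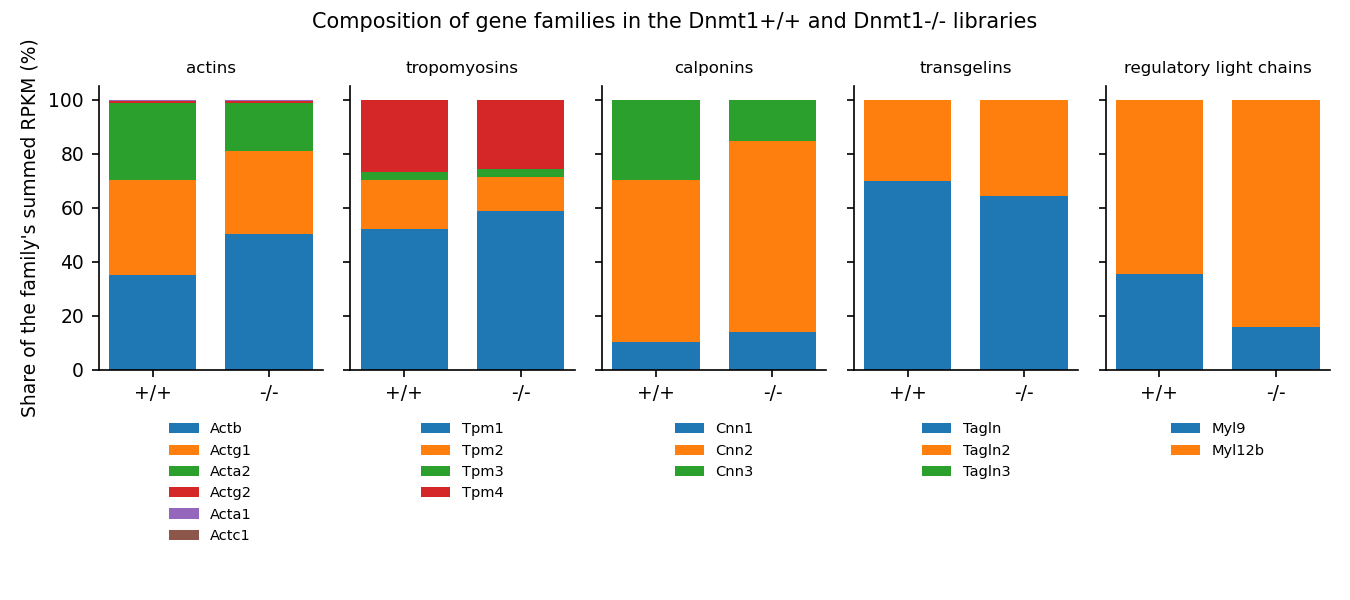
Share of each gene in the summed RPKM of its family in the Dnmt1+/+ (left bar) and Dnmt1-/- (right bar) library, 1 library each. Myl12b stands for the entry that it shares with 2900073G15Rik. Acta2 narrows from 28.5% to 17.9% of the actins and Myl9 from 35.6% to 15.8% of the light chains, while Cnn1 is drawn with both entries summed, at 10.4% and 14% of the calponins, against 1.95% and 1.91% on its plus-numbered entry alone.

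Other genes of the contractile apparatus were examined as lists put together by function, and some genes stand in several lists. Their counts stand beside the 8.47% of all genes kept that were more than 2-fold higher and the 10.9% that were lower, and their medians beside -0.14. Of 25 further smooth muscle and contractile genes 17 passed the filter, and 5 were more than 2-fold higher and 1 lower, with a median log2 change of 0.51. Mylk, which encodes the kinase that phosphorylates the regulatory light chains, was at 1.30 RPKM in Dnmt1+/+ and 12.1 in Dnmt1-/-. The LIM protein gene Fhl2 was at 61.0 and 202.5 RPKM, smoothelin (Smtn) at 19.6 and 56.9, and Csrp2, another LIM protein gene, at 67.1 and 146.2. The integrin gene Itga8 was the lower one, at 2.01 and 0.0487 RPKM. The most abundant genes of the list, Tpm1 (1233 and 1919 RPKM) and caldesmon, Cald1 (578.8 and 740.5), stayed within 2-fold. Some genes of the light chain pathway thus differed in opposite directions, with the kinase gene Mylk higher and the light chain gene Myl9 lower in Dnmt1-/-.

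Of 24 genes of stress fibres and focal adhesions, all passed the filter, with 4 higher and 1 lower and a median of 0.38. Actn1, which encodes alpha-actinin, the crosslinker of stress fibres, was at 213.2 and 499.9 RPKM. The talin gene Tln2, at 4.32 and 12.6 RPKM, and synaptopodin, Synpo, at 6.89 and 14.3, were higher as well. Ldb3, a PDZ-LIM gene of the muscle Z-disc, was lower, at 5.94 and 1.57 RPKM. The abundant Flna (529.9 and 527.0 RPKM) and Zyx (337.3 and 424.0) stayed within 2-fold.

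Among 33 genes that regulate actin monomers and filaments and passed the filter, 3 were higher, none was lower past 2-fold, and the median was 0.18. These were fascin (Fscn1), a bundling protein, at 202.6 and 704.4 RPKM, the capping protein gene Capg at 27.3 and 79.5, and ezrin (Ezr), a linker to the membrane, at 26.1 and 74.8. Cofilin (Cfl1, 903.4 and 1194 RPKM) and thymosin beta 4 (Tmsb4x, 1191 and 843.0) were the most abundant and stayed within 2-fold. Of the actin-like and actin-related genes 7 passed the filter and none passed 2-fold, as was the case for 9 tropomyosin, light chain and non-muscle myosin II genes, with medians of 0.10 and 0.38. The most abundant of these were Actr1a (70.9 and 77.2 RPKM) and Actr1b (48.6 and 53.4) in the first list, and Tpm1 and the myosin essential light chain gene Myl6 (690.4 and 862.1) in the second.

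The targets and regulators of Srf, Mrtf and Yap, factors that respond to actin assembly and tension, were then examined. Of 22 target genes, 9 were higher past 2-fold in Dnmt1-/- MEFs and 1 lower, with a median log2 change of 0.85. Over all genes kept, 8.47% were higher and 10.9% lower, with a median of -0.14. None of the 10 members is in this list, and the median of their 11 entries was 0.37. Thrombospondin 1 (Thbs1), a secreted matrix protein, was at 65.4 RPKM in Dnmt1+/+ and 1034 in Dnmt1-/-, which is 15.8-fold higher. Ankrd1, an ankyrin repeat protein gene, was at 69.4 and 661.0 RPKM, and Cyr61, a matricellular protein, at 113.9 and 709.0. Edn1, the endothelin precursor gene, was lower, at 4.31 and 1.79 RPKM. Several of these genes also answer to TGF-beta, growth factors or p53, so the list is not specific to one pathway.

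Of 31 entries of the regulators, 2 were higher and 3 lower, with a median of 0.31. Klf5, at 1.77 and 7.70 RPKM, and Smad7, an inhibitor of TGF-beta signalling, at 4.25 and 12.7, were higher. Cdc42ep3 (41.2 and 15.8 RPKM), Tead2 (46.9 and 19.9) and the TGF-beta receptor gene Tgfbr1 (6.49 and 3.16) were lower. The abundant Rhoc (175.8 and 217.3 RPKM) and Rhoa (159.8 and 227.9) stayed within 2-fold, as did Srf, at 20.6 and 29.0. Myocd, the myocardin gene, a cofactor of Srf in smooth muscle, was under 1 RPKM in both libraries, at 0.131 and 0.382.

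**Figure D5:**
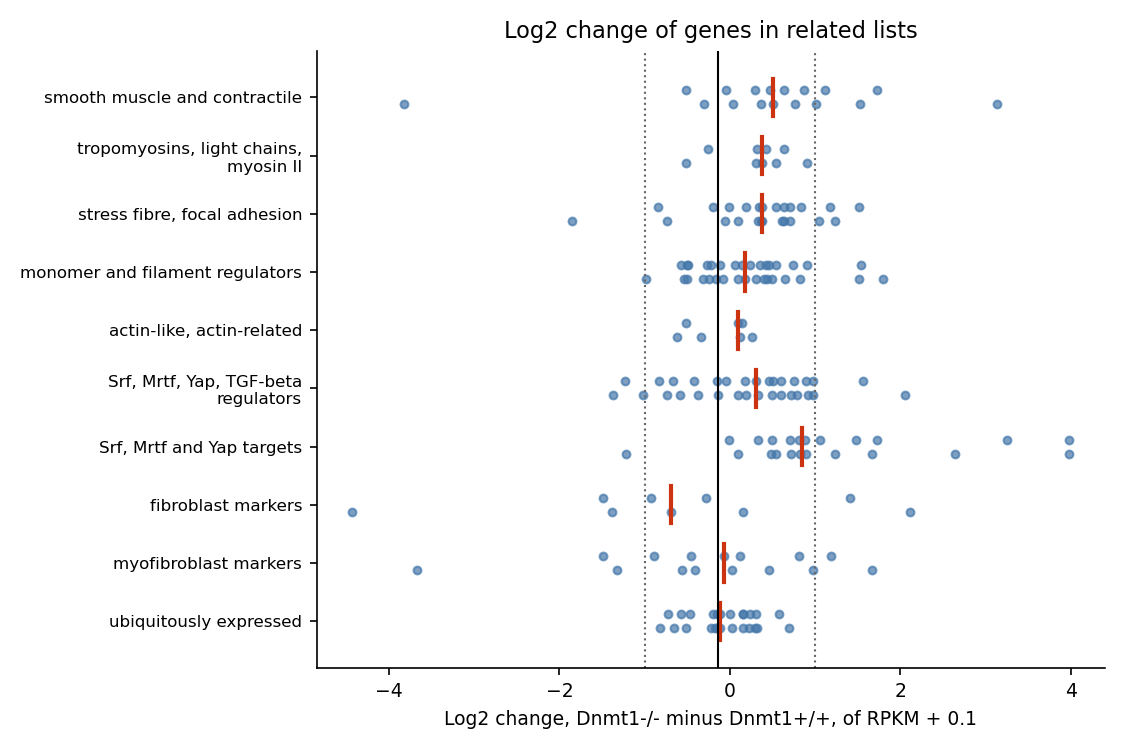
Log2 change from Dnmt1+/+ to Dnmt1-/- of each gene that passed the filter, by list, with the median of the list as a vertical bar, the median of all genes (-0.14) as a solid line and 2-fold as dotted lines. The targets of Srf, Mrtf and Yap have the highest median of the plotted lists, 0.85, the ubiquitously expressed genes lie at -0.11 with none past 2-fold, and the fibroblast markers have the lowest, -0.69. None of the 10 members is in a plotted list.

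The name myofibroblast was checked against markers. Of 9 fibroblast markers that passed the filter, 2 were higher and 3 lower in Dnmt1-/-, and their summed RPKM was 6289 in Dnmt1+/+ and 4975 in Dnmt1-/-. Vimentin (Vim, 2269 and 1873 RPKM) and the collagen gene Col1a1 (1448 and 897.7) were abundant in both libraries and within 2-fold. Thy1, a surface marker of fibroblasts, was at 4.84 and 0.129 RPKM, fibronectin (Fn1) at 663.7 and 235.5, and Col1a2 at 1241 and 475.9. S100a4 (289.6 and 1262 RPKM) and Pdgfra (6.95 and 18.7) were the higher ones.

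Of 15 genes linked to myofibroblasts and their matrix, 2 were higher and 3 lower, with a median of -0.07. Fn1 and Ctgf are among them and were also counted in lists above. Periostin, Postn, was at 176.6 and 13.7 RPKM, and the cadherin gene Cdh11 at 86.9 and 34.8, both lower, as was Fn1. The growth factor gene Ctgf, at 47.3 and 150.2 RPKM, and Itga11, at 10.9 and 25.1, were higher, and the abundant Sparc (897.3 and 918.4) and Serpinh1 (948.3 and 512.1) stayed within 2-fold. Acta2, Tagln and Tpm2 were thus at near equal levels in libraries in which genes of this list differed in both directions. Past 2-fold, Postn, Fn1 and Cdh11 were lower, and Ctgf and Itga11 were higher.

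Markers of differentiated smooth muscle were scarce, with a summed RPKM of 32.9 in Dnmt1+/+ and 68.0 in Dnmt1-/- over 8 genes, most of it from Smtn, and with Lmod1 next at 8.18 and 8.43. The defining Myh11 was at 0.312 and 0.594 RPKM, Des at 0.318 and 0.0780, and Kcnmb1 was listed at 0 in both. The 8 skeletal muscle markers summed to 0.128 RPKM in Dnmt1+/+ and 3.48 in Dnmt1-/-, nearly all from Myf5 (0.106 and 3.28), while Myod1 and Myog were under 0.05 RPKM in each library. Tnnt3 counts as 0 in these sums, but its status was FAIL, so its level is not known. The 7 cardiac markers summed to 3.41 and 29.5 RPKM, most of it from Tnnt2 (2.30 and 27.7), with Nkx2-5 at 0.143 and 1.58. The levels of 4 others were lower in Dnmt1-/- and under 1 RPKM in both, with Tnni3 at 0.662 and 0.130, Nppa at 0.173 and 0.0369, Myh7 at 0.109 and 0.00371 and Myh6 at 0.0284 and 0.00117. Of the pericyte markers, Cspg4 (4.35 and 10.9 RPKM) was higher, Mcam (15.2 and 9.90) within 2-fold, and Kcnj8 and Abcc9 were listed at 0 in both libraries. Epithelial and endothelial markers each summed to under 1 RPKM in each library. The part of such cells in the levels of the actins was not tested, and in bulk RNA fewer cells of a type and less RNA per cell cannot be told apart.

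The genes whose levels in the 2 libraries were most like those of Acta2 and Actb were found by the distance between log2 levels. For Acta2 these were the ribosomal protein genes Rps24 and Rps18, the elongation factor gene Eef2, Tpt1 and the ferritin gene Fth1, at distances from 0.246 to 0.331. For Actb the nearest was Actg1, at 0.707, followed by Hspa8, Lgals1, Vim and Tpm1, at 0.756 to 1.10. With only 2 points a gene, this likeness describes level and little else.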

How the data were processed

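RNA of 1 Dnmt1+/+ and 1 Dnmt1-/- MEF library was read as 50 bp single ends. Per the labels and the study's methods, the authors used TopHat for alignment (build mm9) and Cufflinks for assembly, and deposited RPKM values from Cuffdiff. Versions, scaling between libraries and use of strand in assigning reads are not given in the sources used here. The deposited table carries no counts, and no counting error was derived from its values. The deposited columns used were the RPKM of both libraries and the status.

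From the RPKM values the log2(RPKM + 0.1) difference was taken for entries with status OK, a symbol and at least 1 RPKM in one library or the other, with a call past 2-fold. The members and lists were chosen with earlier results of these data known. Lists are described by counts and medians beside those of all genes. Named were the members and overlapping entries, the up to 4 genes past 2-fold in each direction and the 2 most abundant of each list, and the 5 genes nearest to Acta2 and Actb. Some genes that this rule names are not reported here. Others, such as Srf, Myocd, Gapdh and the paralogs of the members, were named after their values were seen. Gene positions come from GENCODE M1 (NCBI37) and promoter sequences from RefSeq. Window copies were exact matches. The counting of calls was tested on simulated data. Alternatives were other pseudocounts, filters, thresholds and scalings. Python 3.11.15, numpy 2.4.6, pandas 2.3.3 and matplotlib 3.10.9 were used.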

Additional observations from a re-analysis of the deposited data

How the results depend on the processing

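With 1 library per genotype, neither replicate spread nor counting error could be given, and no library could be left out. No paired analysis was possible because each genotype had 1 library. The counts of members past 2-fold held under other pseudocounts, other filters and every scaling planned. At a 1.5-fold threshold 3 members were higher and 1 lower, against 1580 and 2670 of the 11244 genes kept. At 4-fold 0 members were higher and 0 lower, against 500 and 387 of all genes kept. The smooth muscle median of 0.15 became 0.29 with the median of all genes subtracted, 0.19 with upper quartiles set equal and 0.26 with the median of ubiquitously expressed genes subtracted, and the cytoplasmic actin median of 0.74 became 0.88, 0.78 and 0.84. These shifts are those of the scaling itself. As a share of the RPKM of all named entries, Actb made up 0.475% in Dnmt1+/+ and 1.04% in Dnmt1-/-, Actg1 0.483% and 0.635%, and Acta2 0.387% and 0.370%. Leaving out the minus-numbered Cnn1 entry and subtracting the change of Actb were chosen after seeing the data. Without the minus-numbered Cnn1 entry 1 member was higher, the smooth muscle median was 0.05 and its difference from the cytoplasmic actins -0.69. With the change of Actb subtracted, 4 members were lower and 0 higher, against 7419 lower and 458 higher of the 11244 genes kept. The smooth muscle and cytoplasmic actin medians were then -0.95 and -0.37. Over all lists together, 28 of the 185 entries kept were higher and 11 lower (15.1% and 5.95%), against 8.47% and 10.9% of all genes kept. This pool mixes the contractile lists with the marker lists and the ubiquitously expressed genes. Over the other pseudocounts, filters and scalings, the pooled counts ranged from 26 to 38 and from 9 to 14. The counts over all genes then ranged from 783 to 1475 and from 801 to 1655.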

Other observations

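Actb is often used as the reference gene of RT-qPCR. On the RPKM scale its level was 2.15-fold higher in Dnmt1-/- MEFs. Log2 changes of values divided by Actb are therefore lower by 1.10 than those of the RPKM. With the change of Actb subtracted, the median change of the 11244 genes kept moved from -0.14 to -1.24, and 458 genes were more than 2-fold higher and 7419 lower, where 952 and 1225 were counted without it. Gapdh, another common reference, was at 58.4 RPKM in Dnmt1+/+ and 59.5 in Dnmt1-/-. Copies of its sequence elsewhere in the genome were not searched. The 25 ubiquitously expressed genes kept, Gapdh included, had log2 changes from -0.82 (Vcp) to 0.69 (B2m), with a median of -0.11. Whether RNA per cell differed between the lines was not tested.

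Cnn1 is one of 113 symbols with an entry in the plus-strand run and another in the minus-strand run of entry names at one locus. For 108 of them the annotation gives a single strand, and in 64 of these the entry with the higher summed RPKM stood in the run of the annotated strand. Cnn1 belongs to the others.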
